A study of Arabidopsis thaliana with 48 samples.

Results

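The genes described here are 34 loci of Arabidopsis thaliana that act in mitosis and cytokinesis, among the 33715 entries (33602 distinct loci) of a count table of ribosome-bound mRNA from roots. They were taken from a list of loci, which was chosen with earlier results of these data known, by matching each locus code to the table entry that carries it. Each of the 34 loci had 1 entry. The 8 B-type cyclins are CYCB1;1 (AT4G37490), CYCB1;2 (AT5G06150), CYCB1;3 (AT3G11520), CYCB1;4 (AT2G26760), CYCB2;1 (AT2G17620), CYCB2;2 (AT4G35620), CYCB2;3 (AT1G20610) and CYCB2;4 (AT1G76310). The 5 A-type cyclins are CYCA1;1 (AT1G44110), CYCA2;1 (AT5G25380), CYCA2;3 (AT1G15570), CYCA2;4 (AT1G80370) and CYCA3;1 (AT5G43080), and the 4 plant-specific B-type cyclin-dependent kinases (CDKB) are CDKB1;1 (AT3G54180), CDKB1;2 (AT2G38620), CDKB2;1 (AT1G76540) and CDKB2;2 (AT1G20930). The Aurora kinases are AUR1 (AT4G32830), AUR2 (AT2G25880) and AUR3 (AT2G45490), the spindle checkpoint genes BUBR1 (AT2G33560) and MAD2 (AT3G25980), and the spindle microtubule genes TPX2 (AT1G03780), EDE1 (AT2G44190), ATK1 (AT4G21270) and ATK5 (AT4G05190). Activators of the anaphase-promoting complex are CDC20.1 (AT4G33270), CDC20.2 (AT4G33260) and CCS52B (AT5G13840), and the phragmoplast and cytokinesis genes are KNOLLE (AT1G08560), PLE (AT5G51600), HIK (AT1G18370) and TES (AT3G43210). The last member is the transcription factor MYB3R4 (AT5G11510). In the count table KNOLLE lies at chr1:2709632-2710912, CYCB1;1 at chr4:17621886-17624285 and CDKB2;1 at chr1:28720328-28722521, and these 3 genes are followed through every comparison. The RefSeq gene starts used for promoters below differ from the ends of these entries.

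Plant cells enter mitosis when A- and B-type cyclins activate cyclin-dependent kinases, and leave it when the anaphase-promoting complex marks those cyclins for destruction. Many of these genes are transcribed in a pulse late in G2, through 3-repeat MYB factors that bind the mitosis-specific activator element. In the root, dividing cells are concentrated in the meristem behind the tip, and each tissue there divides before its cells elongate. Brassinosteroids, steroid hormones perceived by the receptor BRI1, are known to act on both the division and the elongation of root cells.

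All plants were 6-day-old seedlings that carried a FLAG-tagged ribosome, and mRNA was recovered by pulling down the tagged polysomes from roots. The promoter of the tag sets the cells that are read. In 3 lines the receptor mutant bri1-116 carried BRI1 under pGL2 or pSCR, written with the tag promoter first: pGL2(pGL2BRI1), pGL2(pSCRBRI1) and pSCR(pSCRBRI1). In the 5 other lines the tag was in Col-0 under pBRN2 (lateral root cap and columella), pSHR (stele), pGL2 (epidermis), pSCR (endodermis) or 35S (whole root). Each of the 8 lines was sampled at 0, 3 and 8 h of 100 nM brassinolide (BL), the most active brassinosteroid, with 2 libraries, called biological repetitions in the series design, for each of the 24 groups. No untreated library at 3 or 8 h is used here, so BL and the time passed cannot be told apart.

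Total counts ran from 20556381 to 37685541 per library over the 48 libraries, and the members held between 874 and 89297 counts over all of them. Levels are counts scaled to library size (CPM) with trimmed mean of M values (TMM) factors and not divided by gene length, so they are compared between libraries and not between genes. Among the Col-0 lines at 0 h, summed markers of root cap, non-hair epidermis, endodermis and stele were highest in the line with the matching tag promoter. For example, 4 root cap markers stood at 3660 and 3150 CPM in pBRN2 and 384 and 374 CPM in 35S. As a single marker, the epidermis gene WER was higher in pBRN2, at 105 and 80.5 CPM, than in pGL2, at 59.8 and 55.4 CPM. The libraries labelled pGL2(pSCRBRI1) did not follow their label. At 0 h those held 4200 and 3390 CPM of 4 endodermis markers, against 4180 and 5230 CPM in pSCR, and 5.23 and 5.92 CPM of 4 non-hair epidermis markers, against 217 and 150 CPM in pGL2. In pGL2(pGL2BRI1) the endodermis markers summed to 1480 CPM in replicate 2 at 0 h, 665 CPM in replicate 1 at 3 h and 1610 CPM in replicate 2 at 8 h, and to 83.9, 92.4 and 117 CPM in the other replicate at 0, 3 and 8 h. Those 3 libraries lack a note on trimmed reads that 21 of the 48 libraries carry. All pSCR and pGL2(pSCRBRI1) libraries carry it, all 35S, pBRN2 and pSHR libraries lack it, and the pGL2 libraries are mixed. In pSHR over pSCR and in pSCR over 35S the note therefore goes with the line. The 35S libraries held 394 CPM of 2 green tissue markers in replicate 1 at 3 h and 528 CPM in replicate 2 at 8 h, against 30.7 to 81.4 CPM in the other 4.

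The promoters of the members were searched for the core of the mitosis-specific activator element, AACGG, on both strands, from 250 bases before to 50 bases after the RefSeq gene start. The core was found in 22 of the 34 members (64.7%), against 6765 of 27443 protein-coding genes (24.7%), and 16 members (47.1%) held 2 or more, against 4.89% of all protein-coding genes. It was present in 7 of 8 B-type cyclins, each with 2 or more, in all 4 phragmoplast and cytokinesis genes and in 1 of 4 CDKB genes. Of 10 DNA replication genes 2 held 1 core and none held 2. Of 23 other cytokinesis genes 11 held the core (47.8%) and 3 of them 2 or more, and of 23 further genes of entry into and exit from mitosis 10 held it (43.5%) and 2 of them 2 or more. The hexamers CGTGCG and CGTGTG, letters bound by brassinosteroid-regulated BZR1 factors, were found in 2 members (5.88%), CDKB1;2 and KNOLLE, against 8.19% of all protein-coding genes. The hexamers can share bases with each other, and a match is a description of the letters only. To show how the cores are spaced, the 250 bases before the gene start are given for a B-type cyclin with 4 cores in them, for another with 3 and for the kinesin gene TES with 2. The 3 stretches, from TAIR10.1 (RefSeq), are those of CYCB1;2 at chr5:1861704-1861953 (minus strand), CYCB2;2 at chr4:16901346-16901595 (plus strand) and TES at chr3:15190536-15190785 (plus strand), written 5′ to 3′ on the gene's strand with each AACGG or CCGTT in capitals.
CYCB1;2: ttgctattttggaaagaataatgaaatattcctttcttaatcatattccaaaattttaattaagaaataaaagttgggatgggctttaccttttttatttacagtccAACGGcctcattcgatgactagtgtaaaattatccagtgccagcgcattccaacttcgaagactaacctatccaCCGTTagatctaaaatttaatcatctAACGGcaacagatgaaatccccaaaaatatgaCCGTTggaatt
CYCB2;2: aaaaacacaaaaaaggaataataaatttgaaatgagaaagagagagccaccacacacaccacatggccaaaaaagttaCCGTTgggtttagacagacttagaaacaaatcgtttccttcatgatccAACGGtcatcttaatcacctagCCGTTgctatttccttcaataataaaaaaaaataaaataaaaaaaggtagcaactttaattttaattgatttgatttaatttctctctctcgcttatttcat
TES: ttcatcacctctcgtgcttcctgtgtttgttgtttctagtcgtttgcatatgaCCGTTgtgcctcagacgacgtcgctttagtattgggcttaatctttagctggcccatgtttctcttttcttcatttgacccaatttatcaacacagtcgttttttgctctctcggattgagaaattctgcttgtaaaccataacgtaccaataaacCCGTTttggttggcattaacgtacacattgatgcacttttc

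In these stretches the cores of CYCB2;2 lie 172, 124 and 102 bases before the gene start, the first base of each core being counted, and those of CYCB1;2 lie 143, 69, 43 and 11 bases before it. The medians by number of cores were close after BL and ran in the reverse order between tissues. The 16 members with 2 or more cores, the 6 with 1 and the 12 with none had median log2 changes of -0.51, -0.49 and -0.48 after 3 h of BL over the mean of 8 lines, and of 1.31, 1.55 and 1.78 in pSHR over pGL2 at 0 h.

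**Figure D1:**
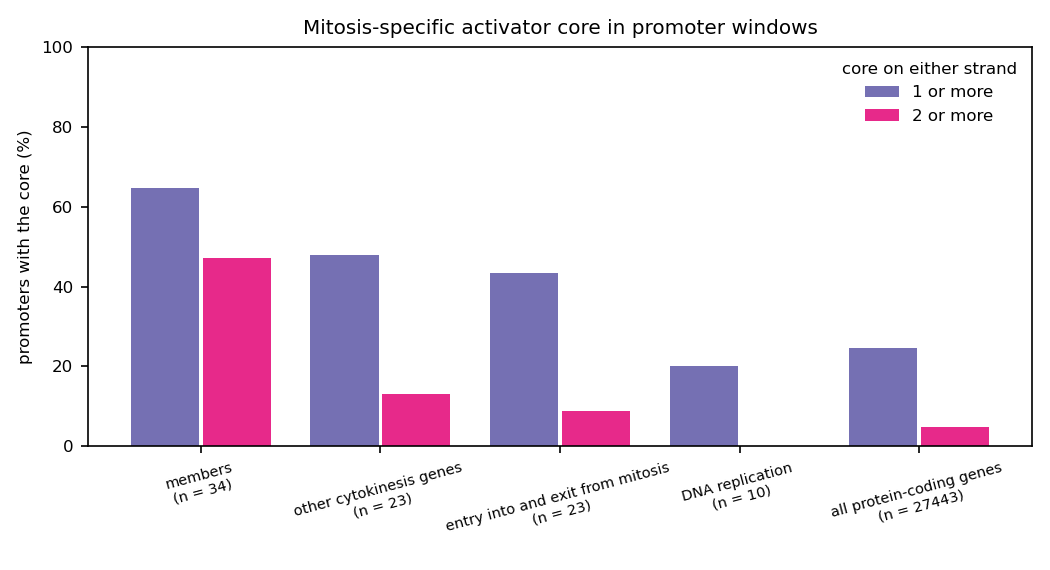
Share of promoter windows (vertical axis, percent) that hold 1 or more, or 2 or more, AACGG cores on either strand, for the members, 3 comparison lists and all protein-coding genes. The members stand at 64.7% and 47.1%, all protein-coding genes at 24.7% and 4.89%.

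Before treatment the mitotic genes were highest in the stele line and lowest in the epidermis line. Of the 5 Col-0 lines, pSHR had the highest mean for 26 of the 34 members, pBRN2 for 5, pSCR for 2 and 35S for 1, while pGL2 had the lowest mean for 28. Summed over the members, the level was 835 and 836 CPM in pSHR, 423 and 487 CPM in pBRN2, 244 and 267 CPM in pGL2, 373 and 570 CPM in pSCR and 553 and 547 CPM in 35S. The 2 pSCR libraries differed from each other more than those of the other Col-0 lines. In bulk polysome samples, fewer dividing cells and less mRNA per dividing cell cannot be told apart. The meristem markers PLT1 and PLT2, root stem cell regulators, summed to 13.3 and 11.8 CPM in pSHR, 13.8 and 14.4 CPM in pBRN2, 4.99 and 6.15 CPM in pGL2, 15.2 and 30.6 CPM in pSCR and 22.1 and 17.9 CPM in 35S. Their part in the differences between lines was not tested.

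Set against the epidermis, the stele line had 25 of the 34 members higher and 0 lower by edgeR's quasi-likelihood test with Benjamini-Hochberg adjustment over all 20995 genes tested, where 32.5% of all genes were called higher and 30.9% lower. The median log2 difference was 1.47 over the members and 0.10 over all genes. KNOLLE, the syntaxin that fuses vesicles into the cell plate, had 123 and 131 CPM in pSHR, against 25.4 and 34 CPM in pGL2, a log2 difference of 2.10 ± 0.326 (SE, adjusted p = 2.03e-06). CDKB2;1, a kinase gene active from G2 to mitosis, had 92.7 and 87.5 CPM in pSHR, against 17.4 and 17.5 CPM in pGL2, a difference of 2.36 ± 0.268 (adjusted p = 6.17e-09). The largest difference was that of MAD2, a spindle checkpoint gene, with 104 and 101 CPM in pSHR, against 15.4 and 16.8 CPM in pGL2, at 2.67 ± 0.284 (adjusted p = 1.72e-09). For these 3 genes both pSHR libraries lay far above both pGL2 libraries.

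Other members with small p-values were led by cyclins and kinases. CDKB2;2, another kinase gene of G2 and mitosis, had 50.8 and 54 CPM in pSHR, against 10.8 and 11.3 CPM in pGL2 (2.25 ± 0.274, adjusted p = 2.61e-08). CYCA1;1, an A-type cyclin of mitosis, had 31.9 and 32.4 CPM in pSHR, against 6.33 and 7.29 CPM in pGL2 (2.24 ± 0.276, adjusted p = 3.24e-08). CYCA2;4, a partner of CDKB1, had 18.2 and 16.6 CPM in pSHR, against 4.2 and 3.77 CPM in pGL2 (2.12 ± 0.268, adjusted p = 4.92e-08). In all 3 the groups did not overlap. ATK5, a kinesin of the spindle midzone, had 18.8 and 17.2 CPM in pSHR, against 4.95 and 5.45 CPM in pGL2 (1.79 ± 0.265, adjusted p = 8.66e-07).

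All 4 CDKB genes, all 3 Aurora kinases, both checkpoint genes, all 4 spindle microtubule genes and MYB3R4 were higher in pSHR than in pGL2, as were 6 of 8 B-type cyclins and 3 of 5 A-type cyclins. AUR3, an Aurora kinase of centromeric chromatin, had 8.73 and 8.22 CPM in pSHR, against 1.55 and 1.84 CPM in pGL2 (log2 difference 2.32 ± 0.339, adjusted p = 6.81e-07). Cell-plate genes other than KNOLLE did not pass. PLE, the microtubule bundler MAP65-3, had 4.89 and 5.14 CPM in pSHR, against 3.54 and 3.03 CPM in pGL2 (0.61 ± 0.381, adjusted p = 0.164). HIK, the kinesin that starts the cell-plate kinase cascade, had 9.17 and 8.62 CPM in pSHR, against 5.88 and 7.29 CPM in pGL2 (0.43 ± 0.278, adjusted p = 0.173). For both the libraries of the 2 lines did not overlap, as for 33 members that were higher in both pSHR libraries, a state reached by 44.6% of all genes. CYCB1;1, the cyclin most used as a reporter of G2 and mitosis, had 13 and 11.9 CPM in pSHR, against 7.19 and 8.16 CPM in pGL2 (0.70 ± 0.338, adjusted p = 0.0721). Leaving out 1 library at a time left 23 to 25 members called, and 22 of the 25 were called every time.

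Differences from the whole-root line were smaller. Against 35S, 10 members were higher in pSHR (7.73% of all genes) and 1 was lower (18.9% of all genes), with a median log2 difference of 0.60 over the members and 0.03 over all genes. The 10 were CYCA3;1, CYCA1;1, CYCA2;4, CYCB1;2, CDKB1;2, CDKB2;2, KNOLLE, AUR3, MAD2 and ATK5. CYCA3;1, an A-type cyclin of the S phase class, had 6.55 and 6.06 CPM in pSHR, against 2.76 and 3.26 CPM in 35S, a difference of 1.07 ± 0.268 (adjusted p = 0.00265). KNOLLE had 72.4 and 66.9 CPM in 35S, a difference of 0.87 ± 0.315 (adjusted p = 0.0395), and CDKB2;1 had 58.3 and 58.2 CPM in 35S, a difference of 0.63 ± 0.254 (adjusted p = 0.0653). CYCB1;1 had 7.9 and 7.89 CPM in 35S and did not pass (0.65 ± 0.336, adjusted p = 0.154). Of the other called members, MAD2 stood at 0.89 ± 0.267, adjusted p = 0.0116, CDKB2;2 at 0.88 ± 0.261, adjusted p = 0.0107, and ATK5 at 0.85 ± 0.255, adjusted p = 0.0117. AUR3 was at 0.91 ± 0.313, adjusted p = 0.0296, CYCA1;1 at 0.86 ± 0.262, adjusted p = 0.0129, and CYCB1;2 at 0.80 ± 0.263, adjusted p = 0.022. Both libraries of pSHR were above both of 35S for 31 members, against 37.3% of all genes. The number called in either direction was 4 without 35S replicate 1, 3 without 35S replicate 2, 5 without pSHR replicate 1 and 7 without pSHR replicate 2, and CYCA3;1 was the only higher member called each time. A fit of the 2 lines alone called 25.

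CYCB1;4 went the other way. This B-type cyclin had 6.05 and 5.29 CPM in pSHR, 10.8 and 12.4 CPM in pBRN2, 7.81 and 11.5 CPM in pGL2, 15.7 and 22.4 CPM in pSCR and 44.3 and 39.6 CPM in 35S at 0 h. Both 35S libraries were above those of every tissue line, and the pSHR pair was the lowest. The log2 difference was -2.89 ± 0.576 for pSHR over 35S (adjusted p = 0.000253) and -1.75 ± 0.56 for pSHR over pSCR (adjusted p = 0.0139). Its levels in pSHR were 0.551 and 9.23 CPM at 3 h and 13.6 and 9.86 CPM at 8 h, so the 2 libraries at 3 h differed widely. Over the 24 group means, CYCB1;4 and CDKB1;1 had the lowest Pearson correlation with the median of the other members, 0.36 each, while 18 members had 0.90 or more. These correlations describe points that share libraries and depth.

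Against the endodermis line, 13 members were higher in pSHR (19.4% of all genes) and CYCB1;4 was lower (19.9% of all genes), with a median of 0.50 over the members and 0.04 over all genes. MAD2 and CDKB2;1 led again. MAD2 had 25.5 and 37.4 CPM in pSCR, giving 1.70 ± 0.273 (adjusted p = 6.83e-06), and CDKB2;1 had 22.4 and 34 CPM in pSCR, giving 1.68 ± 0.261 (adjusted p = 4.33e-06). KNOLLE had 50.8 and 101 CPM in pSCR and did not pass, at 0.74 ± 0.314 (adjusted p = 0.0611), and CYCB1;1 had 11.6 and 13.4 CPM, at -0.01 ± 0.335 (adjusted p = 0.998). The number called was 7 without pSCR replicate 1 and 8 without pSHR replicate 2, and 6 higher members (MAD2, CDKB2;1, CDKB2;2, CYCA1;1, CYCA2;4 and ATK5) were called with each library left out.

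The epidermis line was low against both other references. In pGL2, 0 members were higher (23% of all genes) and 22 lower (25.9% of all genes) than in 35S, with a median of -0.99 over the members and -0.12 over all genes. Compared with pSCR, 0 were higher (24.7% of all genes) and 19 lower (21.2% of all genes), with medians of -0.92 and -0.01. AUR3 had 1.55 and 1.84 CPM in pGL2, against 4.24 and 6.91 CPM in pSCR (-1.72 ± 0.34, adjusted p = 0.000103). KNOLLE (-1.35 ± 0.32, adjusted p = 0.000792) and CDKB2;1 (-0.69 ± 0.259, adjusted p = 0.0296) were lower too, and CYCB1;1 did not pass (-0.70 ± 0.34, adjusted p = 0.0925). The differences from 35S were -1.23 ± 0.319 for KNOLLE (adjusted p = 0.00211), -1.74 ± 0.263 for CDKB2;1 (adjusted p = 3.21e-06) and -0.04 ± 0.339 for CYCB1;1 (adjusted p = 0.928). CDC20.1 and CDC20.2, activators of the anaphase-promoting complex, had 5.16 and 5.41 and 2.3 and 2.91 CPM in pGL2, against 6.02 and 4.57 and 1.8 and 2.32 CPM in 35S. These 2 genes share 33.2% and 36.3% of their exon windows of 50 bases with other places in the genome. Reads from those windows may have been lost or placed elsewhere. Such windows made up 17% in CYCB2;3, 11.3% in CYCB1;2 and 0.468% in AUR1, and none were found in the remaining members. The count against pSCR was 12 without pGL2 replicate 1 and 7 without pSCR replicate 2, while that against 35S stayed between 16 and 18.

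The comparisons of the tissue lines with 35S share the 35S libraries, and those of pSHR and pGL2 with the other lines share their own. In the endodermis itself, 0 members were higher (12.4% of all genes) and 2 lower (22% of all genes) than in 35S, with medians of 0.02 and -0.05. The 2 were CDKB2;1, at -1.05 ± 0.258 (adjusted p = 0.00175), and MAD2, at -0.81 ± 0.268 (adjusted p = 0.0182). KNOLLE (0.12 ± 0.313, adjusted p = 0.809) and CYCB1;1 (0.66 ± 0.338, adjusted p = 0.136) did not pass. The count was 0 without pSCR replicate 1, 1 without 35S replicate 2 and 4 in a fit of the 2 lines alone.

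In the root cap line the shares of members called were below those of all genes. Of the members 3 were higher (8.82%, against 18.1% of all genes) in pBRN2 than in 35S. Lower were 7 (20.6%, against 22.9% of all genes), with medians of -0.24 and -0.14. CYCB2;1, a B-type cyclin, had 13.2 and 10.1 CPM in pBRN2, against 4.35 and 4.51 CPM in 35S, a difference of 1.40 ± 0.311 (adjusted p = 0.000652). AUR2, an Aurora kinase of spindle and phragmoplast, had 34.4 and 43.1 CPM in pBRN2, against 16.2 and 15.8 CPM in 35S, a difference of 1.28 ± 0.288 (adjusted p = 0.000731). CYCA2;3, a cyclin that partners CDKB1 in holding back endoreduplication, had 14.6 and 11.3 CPM in pBRN2, against 9.13 and 8.71 CPM in 35S, at 0.54 ± 0.218 (adjusted p = 0.0464). All 3 were above 35S in both pBRN2 libraries, and CYCB2;1 and AUR2 were called with each library left out.

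The 7 lower members in pBRN2 were CYCB1;4 (-1.86 ± 0.552, adjusted p = 0.00842), CYCB2;3 (-1.16 ± 0.339, adjusted p = 0.00698), MYB3R4, CDKB2;2, CYCA1;1, ATK5 and CDKB2;1. MYB3R4, the activator that binds the mitosis-specific element, had 3.4 and 2.85 CPM in pBRN2, against 5.45 and 6.92 CPM in 35S (-0.98 ± 0.296, adjusted p = 0.00885). CDKB2;1 had 34.7 and 38.1 CPM in pBRN2, at -0.68 ± 0.255 (adjusted p = 0.0337). KNOLLE, with 67.3 and 70.5 CPM in pBRN2, was at -0.02 ± 0.313 (adjusted p = 0.976), and CYCB1;1, with 5.1 and 8.27 CPM, at -0.24 ± 0.341 (adjusted p = 0.599). Of the lower members none was called with each library left out. The total was 4 without pBRN2 replicate 1, 6 without pBRN2 replicate 2 and 5 without 35S replicate 1.

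**Figure D2:**
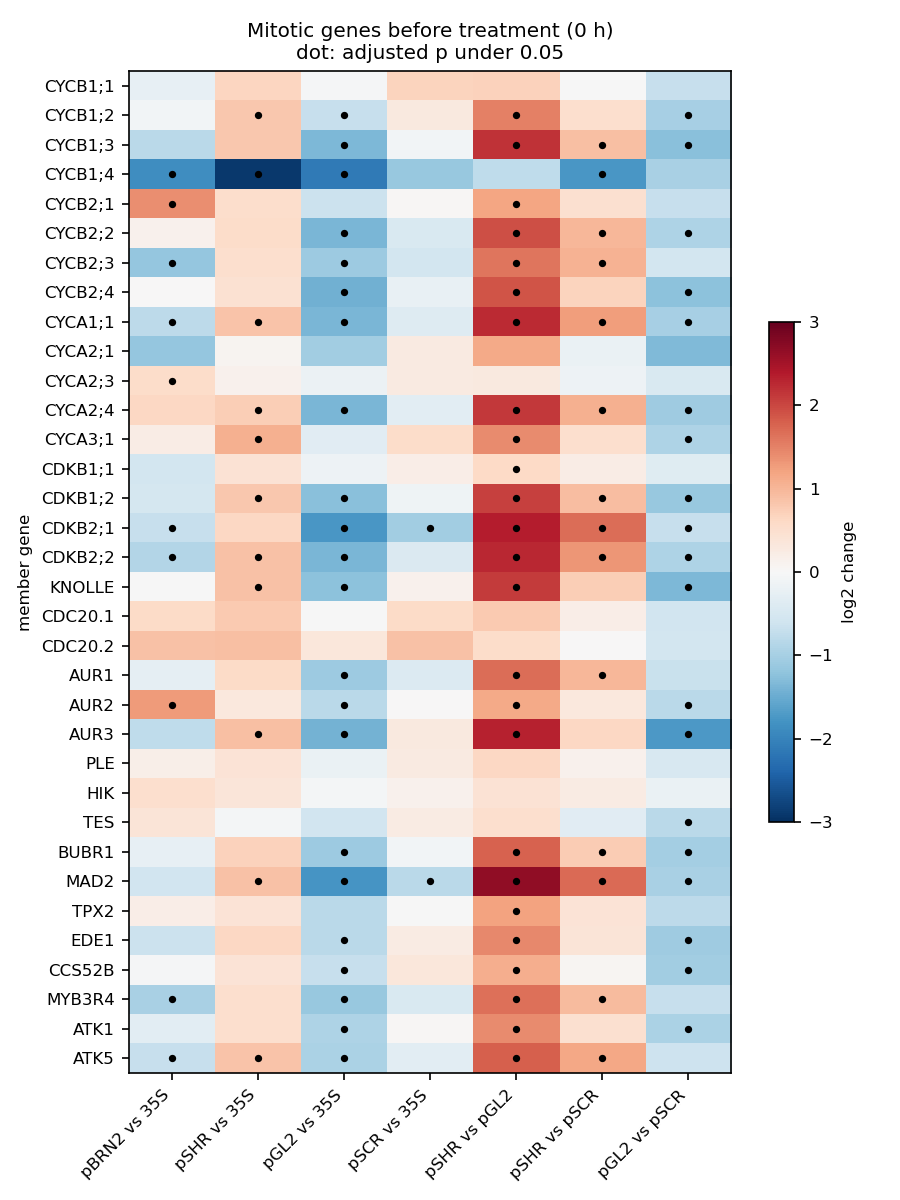
Log2 differences between lines at 0 h (colour, from blue for lower to red for higher in the line named first) for the 34 members (rows) in 7 comparisons (columns), with a dot where the adjusted p is under 0.05. The column of pSHR over pGL2 has 25 dots, all red, and the row of CYCB1;4 is blue in every column.

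Other genes of the cell cycle were compared between pSHR and pGL2 at 0 h in lists chosen with earlier results known, beside 32.5% of all genes called higher and 30.9% lower. In pSHR over pGL2, 8 of 10 DNA replication genes were higher and 0 lower (median 1.03), with PCNA2, a sliding clamp gene, at 1.52 ± 0.258. Of 23 further genes of entry into and exit from mitosis, 13 were higher and 2 lower (median 0.90). Among them CKS1, a small subunit of cyclin-dependent kinases, was at 1.99 ± 0.208, and CCS52A1, an activator of the anaphase-promoting complex that promotes endoreduplication, at -2.33 ± 0.252. Of 23 other cytokinesis genes 9 were higher and 7 lower (median 0.62), shares near those of all genes, with MAP65-4, a microtubule bundler, at 2.92 ± 0.467 and KEULE, the partner protein of KNOLLE, at -1.49 ± 0.227.

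After 3 h of BL the mean level of most mitotic genes was below that at 0 h in each of the 8 lines. The median log2 change of the members by line ran from -0.15 in pSHR to -1.10 in pSCR(pSCRBRI1). Summed over the members, the level was 835 and 836 CPM at 0 h, 732 and 731 CPM at 3 h and 860 and 806 CPM at 8 h in pSHR. In 35S it was 553 and 547 CPM at 0 h, 356 and 416 CPM at 3 h and 522 and 442 CPM at 8 h. In pGL2 it was 244 and 267 CPM at 0 h, 188 and 203 CPM at 3 h and 214 and 207 CPM at 8 h. In 7 of the 8 lines both libraries at 3 h were below both at 0 h. The exception was pSCR, with 373 and 570 CPM at 0 h, 267 and 431 CPM at 3 h and 346 and 511 CPM at 8 h, where the libraries at 3 h overlapped those at 0 h. Of the 272 pairs of a member and a line, 255 (93.8%) had a lower mean at 3 h, against 49.2% of all gene and line pairs, and 23 of the 34 members were lower in all 8 lines, against 9.57% of all genes.

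Within single lines few members passed. At 3 h 0 members were called in pGL2(pSCRBRI1) (0.224% of all genes in either direction), pSCR(pSCRBRI1) (0%), pBRN2 (0.915%), pSHR (0.0191%), pGL2 (0.981%), pSCR (0.0429%) and 35S (0.31%). At an unadjusted p under 0.05 the members there numbered 1, 27, 9, 2, 2, 6 and 8. Of all 20995 genes 1016, 925, 2673, 1050, 2074, 1103 and 2666 were under that cut, in the same order. The share of the members was below that of all genes in pGL2(pSCRBRI1) and pGL2. DESeq2 called 7 members in pSCR(pSCRBRI1), 2 in pBRN2 and 0 in the other 5. With the replicate number as a block more members were called in 35S, pBRN2, pGL2, pGL2(pGL2BRI1) and pSCR(pSCRBRI1), as given at the end. The median log2 change of the members was -0.37 in pGL2(pSCRBRI1), -1.10 in pSCR(pSCRBRI1), -0.40 in pBRN2, -0.15 in pSHR, -0.44 in pGL2, -0.43 in pSCR and -0.50 in 35S, with all-gene medians between -0.03 and 0.03 in the 8 lines. Both libraries at 3 h lay below both at 0 h for 28 members in pGL2(pGL2BRI1) (22.7% of all genes), 23 in pGL2(pSCRBRI1) (18.5%), 29 in pSCR(pSCRBRI1) (16.4%), 17 in pBRN2 (16.4%), 16 in pSHR (19.5%), 27 in pGL2 (23.7%), 13 in pSCR (13.1%) and 28 in 35S (24.9%).

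In pGL2(pGL2BRI1) the median was -0.74 and 4 members were lower (1.11% of all genes), with 0 higher (1.61% of all genes). CYCB1;3 had 3.37 and 2.32 CPM at 3 h, against 7.23 and 8.74 CPM at 0 h (-1.49 ± 0.371, adjusted p = 0.0228). CYCA1;1 had 2.52 and 1.37 CPM at 3 h, against 3.89 and 4.74 CPM at 0 h (-1.17 ± 0.304, adjusted p = 0.0306). ATK5 was at -1.11 ± 0.306 (adjusted p = 0.0443) and MAD2 at -0.99 ± 0.28 (adjusted p = 0.0485). Leaving out any 1 of the 4 libraries left 0 or 1 member called. Without the 3 libraries of this line that lack the read note the median was -0.49, with 1 library left at each time.

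In pSCR(pSCRBRI1) the medians by role at 3 h were -1.30 for B-type cyclins, -1.26 for spindle microtubule genes, -1.17 for checkpoint genes and -0.95 for phragmoplast and cytokinesis genes. KNOLLE had 39 and 20.9 CPM at 3 h, against 83.8 and 48.6 CPM at 0 h, a change of -1.14 ± 0.318 (adjusted p = 0.489). The summed level was 294 and 187 CPM at 3 h in this line, against 582 and 376 CPM at 0 h. Replicate 1, given first, carries the read note at both times and replicate 2 lacks it.

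The 3 genes followed throughout passed in no single line at either time. The log2 change of KNOLLE at 3 h was -0.61 ± 0.321 in pGL2(pGL2BRI1), -0.31 ± 0.314 in pGL2(pSCRBRI1), -1.14 ± 0.318 in pSCR(pSCRBRI1), -0.38 ± 0.314 in pBRN2, -0.02 ± 0.312 in pSHR, -0.49 ± 0.318 in pGL2, -0.53 ± 0.314 in pSCR and -0.65 ± 0.314 in 35S. In pSHR, where its change was smallest, KNOLLE had 133 and 118 CPM at 3 h, against 123 and 131 CPM at 0 h, and the libraries overlapped. For CYCB1;1 the changes were -0.72 ± 0.369 in pGL2(pGL2BRI1), -0.35 ± 0.337 in pGL2(pSCRBRI1), -1.29 ± 0.344 in pSCR(pSCRBRI1), -0.34 ± 0.348 in pBRN2, -0.04 ± 0.332 in pSHR, -0.51 ± 0.346 in pGL2, -0.32 ± 0.337 in pSCR and -0.52 ± 0.34 in 35S. For CDKB2;1 they were -0.53 ± 0.265 in pGL2(pGL2BRI1), -0.24 ± 0.257 in pGL2(pSCRBRI1), -1.06 ± 0.259 in pSCR(pSCRBRI1), -0.32 ± 0.256 in pBRN2, -0.22 ± 0.253 in pSHR, -0.44 ± 0.26 in pGL2, -0.28 ± 0.257 in pSCR and -0.54 ± 0.254 in 35S. All 24 of these changes were below 0. By 8 h KNOLLE stood at 0.04 ± 0.318 in pGL2(pGL2BRI1), 0.15 ± 0.314 in pGL2(pSCRBRI1), -0.11 ± 0.314 in pSCR(pSCRBRI1), 0.01 ± 0.313 in pBRN2, 0.14 ± 0.312 in pSHR, -0.04 ± 0.316 in pGL2, -0.12 ± 0.313 in pSCR and -0.25 ± 0.313 in 35S, with both signs among the lines.

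**Figure D3:**
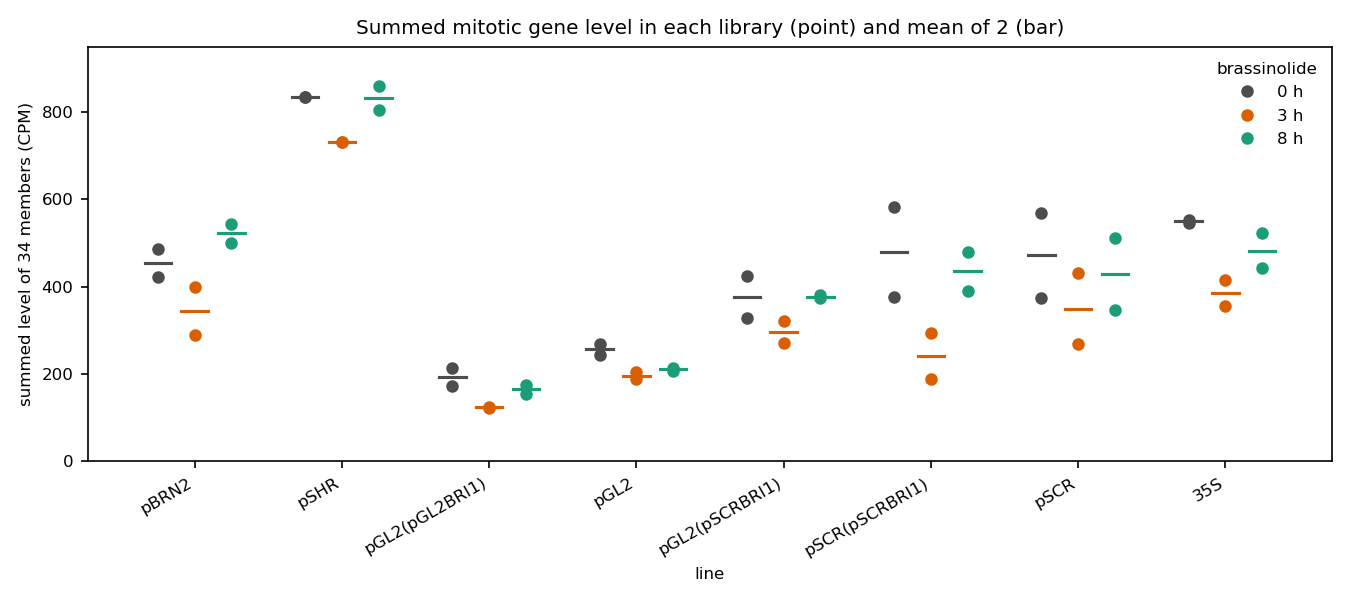
Summed level of the 34 members in CPM (vertical axis, from 0) in each library (points) and as the mean of 2 (bars), at 0, 3 and 8 h of BL in the 8 lines. In pSHR the points lie at 835 and 836 CPM at 0 h, 732 and 731 CPM at 3 h and 860 and 806 CPM at 8 h.

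Because the single lines each rest on 2 libraries a time, the change was also averaged over the 8 lines in the same fit, a comparison added after the single lines had been seen, so that its p-values carry that choice. At 3 h 30 of the 34 members (88.2%) were lower and 0 higher than at 0 h, against 12% and 10.2% of all genes, with a median log2 change of -0.51 over the members and 0.01 over all genes. All 8 B-type cyclins, all 3 Aurora kinases, all 3 activators of the anaphase-promoting complex, both checkpoint genes and all 4 spindle microtubule genes were lower. Of the rest, 4 of 5 A-type cyclins, 3 of 4 CDKB genes and 3 of 4 phragmoplast and cytokinesis genes were lower.

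CYCB1;3 changed most, by -0.86 ± 0.122 (adjusted p = 9.93e-06), a level 0.55 times that at 0 h. It was followed by CYCA1;1 at -0.68 ± 0.0966 (adjusted p = 1.01e-05), the kinesin gene ATK1 at -0.68 ± 0.124 (adjusted p = 0.000246), CYCB2;4 at -0.66 ± 0.178 (adjusted p = 0.00765) and MAD2 at -0.66 ± 0.0957 (adjusted p = 1.41e-05). The checkpoint gene BUBR1 was at -0.63 ± 0.103 (adjusted p = 6.43e-05). KNOLLE changed by -0.52 ± 0.112 (adjusted p = 0.00125), CYCB1;1 by -0.51 ± 0.122 (adjusted p = 0.00295) and CDKB2;1 by -0.45 ± 0.0911 (adjusted p = 0.00063). All 3 had a lower mean at 3 h in 8 of 8 lines.

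KNOLLE ran from 15.2 to 133 CPM with a median of 39.7 CPM over the 16 libraries at 3 h, against 20.7 to 131 CPM with a median of 60.6 CPM at 0 h. CYCB1;1 ran from 2.44 to 13.6 CPM with a median of 6.43 CPM at 3 h, against 3.57 to 16.3 CPM with a median of 9.36 CPM at 0 h. CDKB2;1 ran from 7.98 to 80.3 CPM with a median of 21.1 CPM at 3 h, against 11 to 92.7 CPM with a median of 30.8 CPM at 0 h. The ranges overlap because the lines differ from each other by more than the change within a line.

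The 4 members that did not pass at 3 h were TES (-0.03 ± 0.104, adjusted p = 0.883), MYB3R4 (-0.20 ± 0.107, adjusted p = 0.181), CDKB1;1 (-0.23 ± 0.0882, adjusted p = 0.0602) and CYCA2;1 (-0.23 ± 0.227, adjusted p = 0.529). TES is a kinesin known for cytokinesis after male meiosis, and its mean was lower at 3 h in 4 of 8 lines. CYCA2;1 was the member with the fewest counts, 874 over all libraries, at 0.156 to 1.66 CPM at 3 h.

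With any 1 library left out, 27 to 32 members were called at 3 h, and 26 of the 30 were called every time. Leaving out 1 line at a time left 25 to 29, the fewest without pSCR(pSCRBRI1), where the median was -0.43. Over the 5 Col-0 lines alone 14 members were lower (median -0.40), and 26 were lower without the 3 pGL2(pGL2BRI1) libraries that lack the read note.

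The lines were also compared with each other in their change at 3 h, by an F test over the 8 lines in the same fit, added at the same point. It called 0 of the 34 members, against 0.143% of all genes, with 2 members at an unadjusted p under 0.05 (3.85% of all genes). The planned differences of the 3 h change gave 0 calls as well. The median of the members was -0.24 for pGL2(pGL2BRI1) minus pGL2 (0.0286% of all genes called), -0.59 for pSCR(pSCRBRI1) minus pSCR (0%) and 0.03 for pGL2 minus pSCR (0.00953%). At an unadjusted p under 0.05 there were 1, 4 and 0 members in these 3, against 790, 360 and 610 of all 20995 genes. DESeq2 called 0 members in each.

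**Figure D4:**
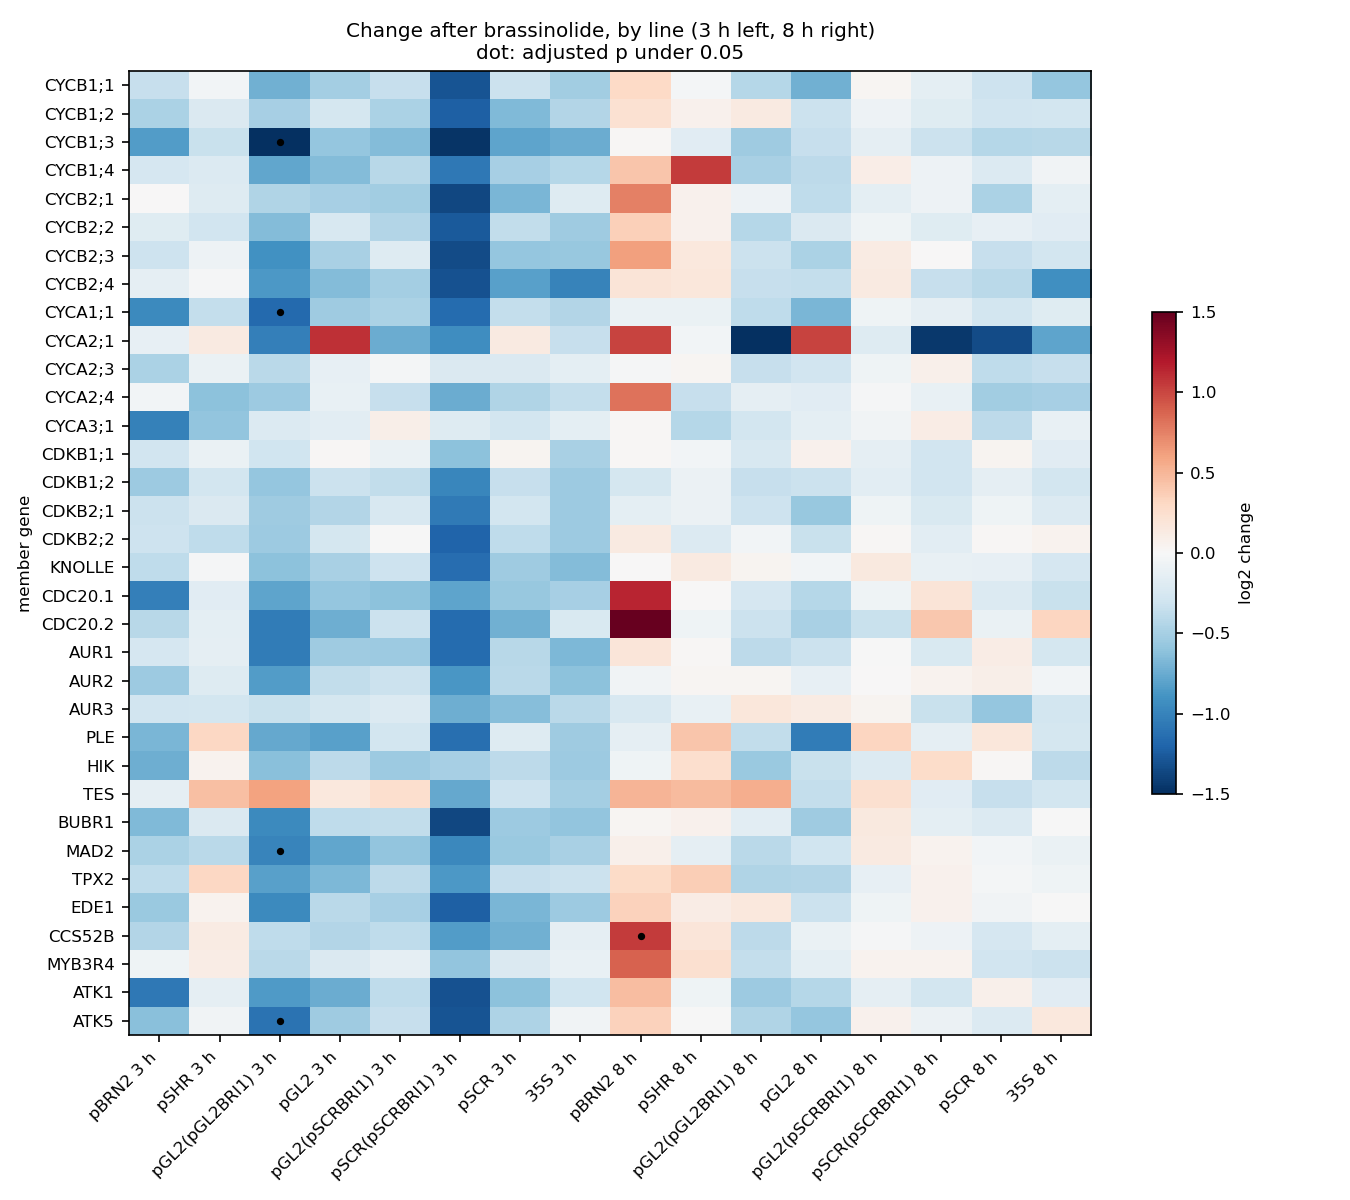
Log2 change after BL over 0 h (colour, blue for lower and red for higher) of the 34 members (rows) in each of the 8 lines at 3 h (left 8 columns) and 8 h (right 8 columns), with a dot where the adjusted p is under 0.05. The columns at 3 h are mostly blue, deepest in pSCR(pSCRBRI1) with a median of -1.10, and the columns at 8 h are mixed, with pBRN2 mostly red.

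At 8 h, over the mean of 8 lines, 0 of 34 members were called against 0 h, where 15% of all genes were. At an unadjusted p under 0.05 there were 5 members, against 6013 of all 20995 genes, a smaller share in the members. DESeq2 called 0 members, and their median log2 change was -0.10. The change was below 0 for 27 of the 34 members, against 48.8% of all genes. Against 3 h, 18 members were higher (3.37% of all genes) and 0 lower (3.49% of all genes), with a median of 0.42 over the members and 0.00 over all genes. All 18 were among the 30 that were lower at 3 h. The comparisons share libraries, the first 2 those at 0 h and this one those at 3 h, so the sign at 8 h over 3 h is not independent of that at 3 h over 0 h.

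The members that were higher at 8 h than at 3 h included EDE1, a microtubule-associated protein of the spindle (0.63 ± 0.104, adjusted p = 0.000164), MAD2 (0.57 ± 0.0957, adjusted p = 0.000237), BUBR1 (0.53 ± 0.104, adjusted p = 0.00134), AUR2 (0.52 ± 0.103, adjusted p = 0.00171) and KNOLLE (0.49 ± 0.112, adjusted p = 0.00561). Both CDC20 genes and CCS52B passed too, at 0.64, 0.75 and 0.43. CYCB1;1 (0.27 ± 0.122, adjusted p = 0.192) and CDKB2;1 (0.25 ± 0.0911, adjusted p = 0.105) did not pass. Of the A-type cyclins 1 of 5 was called, with a median of 0.16, and of the B-type cyclins 4 of 8, with a median of 0.43. That difference between groups of genes was not tested. Without pBRN2 12 members were called, without pSCR(pSCRBRI1) 13, and over the 5 Col-0 lines alone 3.

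Within single lines at 8 h, 1 member was called. It was CCS52B in the root cap line, with 5.53 and 14.2 CPM at 8 h, against 4.63 and 4.98 CPM at 0 h, a change of 1.05 ± 0.272 (adjusted p = 0.0498), where 0.548% of all genes were called higher and 0.576% lower. Replicate 2 of pBRN2 at 8 h was over 2-fold above replicate 1 for 4 members, among them the 3 activators of the anaphase-promoting complex. CDC20.1 had 6.41 CPM in replicate 1 and 28.5 CPM in replicate 2, and CDC20.2 had 3.02 and 22.8 CPM. CCS52B was not called without that library, without either library at 0 h, or in a fit of the 2 groups alone. With replicate 1 left out instead, 3 members were called. CYCA2;4, an A-type cyclin, had 32.6 and 23.9 CPM at 8 h, against 16.1 and 15.7 CPM at 0 h in pBRN2, with both libraries above those at 0 h and no call.

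In the other 7 lines 0 members were called at 8 h: pGL2(pGL2BRI1) (1.39% of all genes), pGL2(pSCRBRI1) (0.11%), pSCR(pSCRBRI1) (0%), pSHR (0.0191%), pGL2 (3.87%), pSCR (0.0667%) and 35S (0.429%). Members at an unadjusted p under 0.05 numbered 1, 0, 0, 0, 5, 1 and 0, against 2471, 1108, 528, 699, 3573, 1484 and 2263 of all 20995 genes. DESeq2 called 0 members in each. The medians were -0.34, -0.03, -0.12, 0.03, -0.33, -0.20 and -0.23 in the same order, and 0.21 in pBRN2. In pGL2 and in 35S 31 of the 34 members had a log2 change below 0 at 8 h, against 52.5% and 47% of all genes. Over all 8 lines 184 of the 272 pairs of a member and a line (67.6%) were below 0 at 8 h, against 49.4% of all gene and line pairs. The median of the members in pGL2 was -0.44 at 3 h and -0.33 at 8 h. The F test between the 8 lines called 0 members at 8 h, against 0.3% of all genes. It had 3 members at an unadjusted p under 0.05 (5.96% of all genes). The 3 planned differences of the 8 h change also called 0 members, as did DESeq2 in each. Of all genes 0.00953% were called for pGL2(pGL2BRI1) minus pGL2, 0% for pSCR(pSCRBRI1) minus pSCR and 0.0572% for pGL2 minus pSCR. At an unadjusted p under 0.05 there were 1, 0 and 2 members in these 3, against 995, 520 and 1309 of all 20995 genes.

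**Figure D5:**
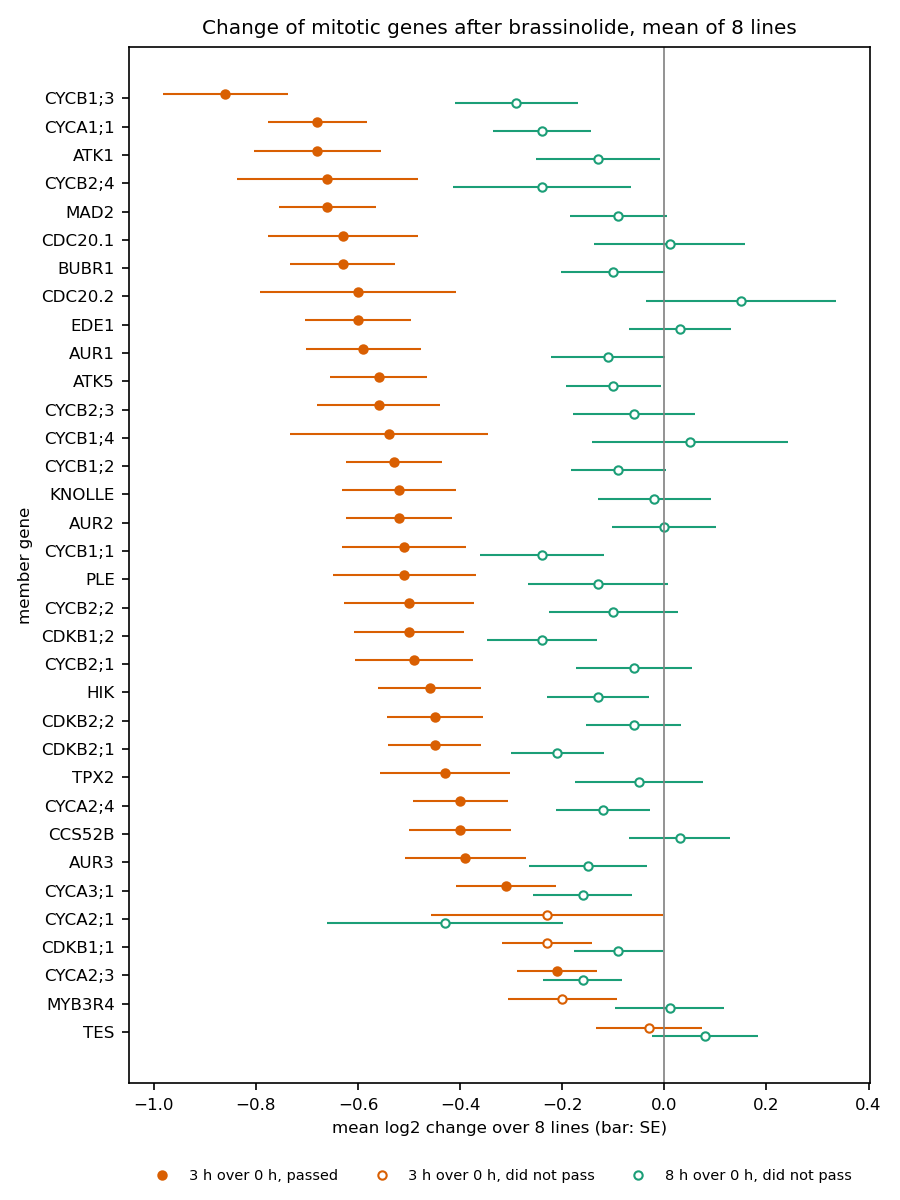
Mean log2 change over the 8 lines (horizontal axis, with SE as bars) of each member at 3 h and 8 h of BL over 0 h, ordered by the change at 3 h. Filled points passed at an adjusted p under 0.05. At 3 h 30 members are filled and lie between -0.86 and -0.21, and at 8 h none is filled.

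Other cell cycle genes were tested at 3 h over the mean of 8 lines, where 12% of all genes were lower and 10.2% higher. Of 10 DNA replication genes 2 were lower and 0 higher (median -0.17), RNR2A, a subunit of ribonucleotide reductase (-0.35 ± 0.0726, adjusted p = 0.00079), and PCNA2 (-0.27 ± 0.0895, adjusted p = 0.0292). Of 23 genes of entry into and exit from mitosis 5 were lower and 0 higher (median -0.05), among them the checkpoint gene BUB3.1 (-0.41 ± 0.0828, adjusted p = 0.000701) and CKS2 (-0.43 ± 0.117, adjusted p = 0.0088). Of 23 other cytokinesis genes 4 were lower and 3 higher (median -0.13), with MKK6, a kinase of the cell-plate cascade, at -0.56 ± 0.0953 (adjusted p = 0.0001) and SNAP33, a membrane fusion partner of KNOLLE, at 0.43 ± 0.0813 (adjusted p = 0.000336). That these lists differ from the members was not tested.

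The meristem markers changed at 3 h as well. PLT2 was at -0.91 ± 0.111 (adjusted p = 1.05e-06) and PLT1 at -0.76 ± 0.13 (adjusted p = 9.97e-05) over the mean of 8 lines, and in pSHR they summed to 4.53 and 6.62 CPM at 3 h, against 13.3 and 11.8 CPM at 0 h. At 8 h over 0 h, where no member was called, PLT2 was at -0.94 ± 0.111 (adjusted p = 6.6e-07) and PLT1 at -0.40 ± 0.127 (adjusted p = 0.0332). Their part in the change of the members was not tested. Green tissue markers summed to 394 and 81.4 CPM in 35S at 3 h, against 38.2 and 30.7 CPM at 0 h. Without the 35S line 28 members were lower. The part of green tissue in the change of the members was not tested.

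The lines with BRI1 restored in 1 tissue were compared with Col-0 at 0 h, before treatment. In pGL2(pGL2BRI1) 0 members were higher (6.64% of all genes) and 3 lower (4.74% of all genes) than in pGL2, with a median of -0.43 over the members and 0.01 over all genes. The log2 difference was below 0 for 33 of the 34 members, against 48.6% of all genes. At an unadjusted p under 0.05 there were 12 members, all lower, and 5494 of all 20995 genes in either direction. HIK had 2.88 and 3.38 CPM in pGL2(pGL2BRI1), against 5.88 and 7.29 CPM in pGL2 (-1.07 ± 0.293, adjusted p = 0.0173). ATK5 had 2.33 and 3.3 CPM, against 4.95 and 5.45 CPM in pGL2 (-0.88 ± 0.277, adjusted p = 0.0369). CYCB1;2 had 6.54 and 9.48 CPM, against 12.4 and 16.5 CPM in pGL2 (-0.85 ± 0.273, adjusted p = 0.0415). Both libraries of the restored line were below both of pGL2 for 24 members, these 3 among them, against 28.5% of all genes. KNOLLE (-0.29 ± 0.317, adjusted p = 0.615), CYCB1;1 (-0.80 ± 0.351, adjusted p = 0.141) and CDKB2;1 (-0.45 ± 0.261, adjusted p = 0.283) did not pass. At most 1 member was called with any 1 of the 4 libraries left out. Without the libraries that lack the read note 1 was called, with 1 library of the restored line left and assumed to vary like the other groups. None of the 3 was called each time.

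In pSCR(pSCRBRI1) 0 members were called against pSCR (2.99% of all genes in either direction), with 1 called by DESeq2 and a median of -0.13. At an unadjusted p under 0.05 there were 2 members, against 3353 of all 20995 genes. CDKB1;1, a CDKB gene also known from the stomatal lineage, had 73.9 and 51.4 CPM in pSCR(pSCRBRI1), against 28.2 and 42 CPM in pSCR (0.84 ± 0.25, adjusted p = 0.0625). Both libraries of the restored line lay above those of pSCR. In the libraries labelled pGL2(pSCRBRI1), 0 members were called against pSCR (0.972% of all genes in either direction), with 0 by DESeq2 and a median of -0.29. At an unadjusted p under 0.05 there were 3 members, against 2397 of all 20995 genes.

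ATK5 shares 492 bases, and CDKB2;1 44 bases, with an overlapping entry, and the strand setting of the counting is not given in the sources used here, so reads from such pairs may be mixed.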

How the data were processed

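The table of all 48 libraries that the authors deposited holds raw counts of reads per gene. The submitters' processing notes name TopHat2 2.0.9, HTSeq 0.5.3p3 and the TAIR10 build for alignment and counting. From these counts, edgeR 4.0.16 in R 4.3.3 fitted all 48 libraries with 1 mean per group after filterByExpr (20995 genes, all 34 members kept) and TMM scaling. The quasi-likelihood test was adjusted by Benjamini-Hochberg within each comparison, and a gene was called at an adjusted p under 0.05. SE is the log2 change divided by the root of F. Each p reflects the variation within pairs of libraries, pooled over groups (common dispersion 0.0485). Alternatives were DESeq2 1.42.0, RLE scaling, no filter, a replicate block, the read note as a term, the compared groups alone and each library left out. The members and lists were chosen with earlier results of these data known. Every member could be named. By rule, values were given for called members, at most the 8 with the smallest p each way, and for KNOLLE, CYCB1;1 and CDKB2;1. Other members described with values were chosen after those were seen. The fit was tested on simulated data. Promoter windows came from TAIR10.1 (RefSeq).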

Additional observations from a re-analysis of the deposited data

How the results depend on the processing

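With 2 libraries a group, a change within 1 line had to be large to pass, and counts of calls moved when single libraries were left out. Fits with 1 library left out kept the genes and the dispersion trend of the full fit and left 1 library in that group. A moved count therefore cannot be put down to the library alone. No value of the 34 members changed sign between a called value and an alternative. Under DESeq2 the count was 2 in pBRN2 and 7 in pSCR(pSCRBRI1) at 3 h, 3 in pBRN2 at 8 h and 1 in pSCR(pSCRBRI1) over pSCR. RLE scaling and the read note as a term gave 1 each in pSCR(pSCRBRI1) over pSCR. With no low-count filter 0 members were called in pBRN2 at 8 h. The compared groups alone gave 25 in pSHR over 35S, 4 in pSCR over 35S, 1 in pGL2 at 3 h, 0 in pBRN2 at 8 h, 0 in pGL2(pGL2BRI1) at 3 h and 1 in pGL2(pGL2BRI1) over pGL2. The cause was not tested for any of these. Chosen after seeing the data were the means over lines (14 at 3 h over 0 h and 3 at 8 h over 3 h in the 5 Col-0 lines) and the fit without the pGL2(pGL2BRI1) libraries that lack the read note (0 at 3 h, 1 over pGL2). That fit leaves 1 such library at each time, assumed to vary like the other groups, so its count at 3 h says nothing of stability.

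Replicate numbers were not taken to pair the libraries: same-numbered libraries deviated together with a correlation over 0.1 in 16 of 24 pairs of groups (-0.697 to 0.629). In pBRN2, pSCR, pGL2(pSCRBRI1) and pSCR(pSCRBRI1) all 3 such correlations were over 0.1, a hint from the data. In pSCR(pSCRBRI1) a label goes with the replicate number as well: replicate 1 carries the read note at 0, 3 and 8 h and replicate 2 lacks it. With the replicate number as a block the counts were 18 in pBRN2 over 35S, 17 in pSHR over 35S, 5 in pSCR over 35S, 7 in pGL2(pGL2BRI1) over pGL2 and 1 in pSCR(pSCRBRI1) over pSCR. At 3 h they were 2 in 35S, 3 in pBRN2, 1 in pGL2, 7 in pGL2(pGL2BRI1) and 14 in pSCR(pSCRBRI1), at 8 h 4 in pBRN2 and 2 in pGL2, and 4 for the mean of 8 lines at 8 h.

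With each library left out in turn the counts ran from 4 to 7 (pBRN2 over 35S), 16 to 18 (pGL2 over 35S), 0 to 3 (pSCR over 35S), 3 to 7 (pSHR over 35S), 7 to 16 (pSHR over pSCR), 23 to 25 (pSHR over pGL2) and 7 to 22 (pGL2 over pSCR). They ran from 0 to 3 in pBRN2 and 0 to 1 in pGL2 at 8 h, and from 0 to 1 in pSHR and in pGL2(pGL2BRI1) at 3 h. For pGL2(pGL2BRI1) over pGL2 and pSCR(pSCRBRI1) over pSCR they ran from 0 to 1. For the mean of 8 lines they ran from 27 to 32 at 3 h, 0 to 2 at 8 h and 16 to 21 for 8 h over 3 h.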
